A study of Mus musculus with 12 samples.

Results

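The genes described here are 43 genes of the DNA replication machinery, measured by RNA sequencing in mouse bone marrow cells. They were chosen as the rows of both deposited count tables whose symbol is in a fixed list of replication genes, and all 43 were found among the 24444 gene symbols of each table. Replication starts at origins, where the origin recognition complex with Cdc6 and Cdt1 loads the Mcm2 to Mcm7 helicase in G1 phase. In S phase Cdc45 and the GINS complex join the helicase, which unwinds the DNA. The primase and the polymerases alpha, delta and epsilon then copy the strands, with Pcna as the sliding clamp that holds polymerases on DNA. Transcription of many of these genes is driven by E2F factors at the entry into S phase. In bone marrow they are highest in dividing progenitors and low in mature neutrophils, which have left the cell cycle.

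The marrow came from C57BL/6 mice in 4 groups of 3 libraries. MN1_KO was from Hopx-knockout mice and MN1_WT from Hopx-wildtype mice, both labelled with MN1 overexpression and an age of 16 weeks. The aged_KO group was from Hopx-/- mice and the aged_WT group from wild-type mice, both labelled aged at 18 weeks, with no MN1 overexpression in the label. Hopx is a small protein with a homeodomain that has lost DNA binding, and MN1 is a cofactor of transcription that causes myeloid leukaemia in mice when marrow cells make too much of it. The labels give neither the vector nor the promoter that expressed MN1, neither sex nor batch, and do not say whether mice were pooled or hosts were transplanted. MN1 status, labelled age and deposited table coincide, so they cannot be told apart in any comparison between the MN1 and the aged libraries. The RNA of Y-linked genes, given below with the cell type markers, split along the same line and cannot be told apart from them either. Replicates are numbered as in the titles of the samples. The labels do not say that the replicates were separate animals, so p-values measure the spread between these samples, which may be technical in part.

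Some libraries went against their labels. Levels in single libraries are given as CPM, counts scaled to the library total. In MN1_KO replicates 5, 7 and 8 Mn1 was at 47.3, 46.3 and 22.1 CPM, and the library labelled MN1_WT replicate 3 held 36.4 CPM. The libraries labelled MN1_WT replicates 2 and 4 held only 0.395 and 0.16 CPM. The aged libraries held 0.0704 to 1.18 CPM of Mn1. Results of the replication genes that involve MN1_WT are therefore given with and without replicates 2 and 4. Hopx was at 2.92 to 3.51 CPM in MN1_KO, at 14.1 to 27.9 CPM in MN1_WT, at 0 to 0.121 CPM in aged_KO and at 14.2 to 33.6 CPM in aged_WT. Library totals ran from 16544407 to 28409046 counts, and the replication genes together took 0.319 to 0.538% of a library. All 43 passed the filter on low counts in every comparison.

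Levels between genes can be compared per length, as TPM, the length-scaled transcript values that the authors deposited. By the median over the 12 libraries Pcna was the most abundant of the replication genes, at 381 TPM. Rrm2, the regulatory subunit of ribonucleotide reductase, which makes deoxynucleotides, followed at 180 TPM. Mcm6 at 152 TPM and Mcm7 at 147 TPM came next. At the other end stood Pole, the catalytic subunit of the leading-strand polymerase epsilon, at 11.8 TPM, the GINS subunit Gins3 at 9.91 TPM and Orc1, the largest subunit of the origin recognition complex, at 6.94 TPM. The Mcm2 to Mcm7 proteins form a ring with a single copy of each, and within a library their TPM values spanned 1.96-fold to 2.96-fold. Mcm4 was the lowest of the Mcm2 to Mcm7 genes in every library except MN1_KO replicate 5, where Mcm5 was lowest. Mcm7 was the highest of them in the 6 aged libraries and in MN1_KO replicate 8, and Mcm6 was the highest in the other 5 MN1 libraries.

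The replication genes had a narrower range over the libraries, in the median, than all genes. The highest CPM of a gene over the 12 libraries was 1.48 times its lowest for Rfc5 and 3.2 times its lowest for Rfc4, with a median of 1.82 over the 43 genes. The same median was 2.81 over 13218 tested genes with counts in every library. These genes were not matched to the 43 for level, and the part of count level in this contrast was not tested. Each gene's level in a library can be set against its own mean over the 12 libraries, on the log2 scale of CPM scaled by TMM (trimmed mean of M values, a correction for RNA composition). The median of these differences over the 43 genes was -0.41, -0.53 and -0.073 in MN1_KO replicates 5, 7 and 8. In MN1_WT it was 0.20, -0.48 and 0.13 in replicates 2, 3 and 4. It was 0.062, 0.077 and 0.24 in aged_KO replicates 3, 9 and 10, and 0.14, 0.30 and 0.35 in aged_WT replicates 1, 6 and 7. On this TMM scale the lowest libraries were MN1_KO replicates 5 and 7 and MN1_WT replicate 3, where 2, 1 and 1 of the 43 genes stood above their mean, against 41 of 43 in aged_WT replicates 6 and 7. By the share of all counts, with no TMM factor, the order was another: the 43 genes took 0.392, 0.319 and 0.375% in MN1_KO replicates 5, 7 and 8, 0.364% in MN1_WT replicate 3, and 0.363% in aged_KO replicate 9.

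**Figure D1:**
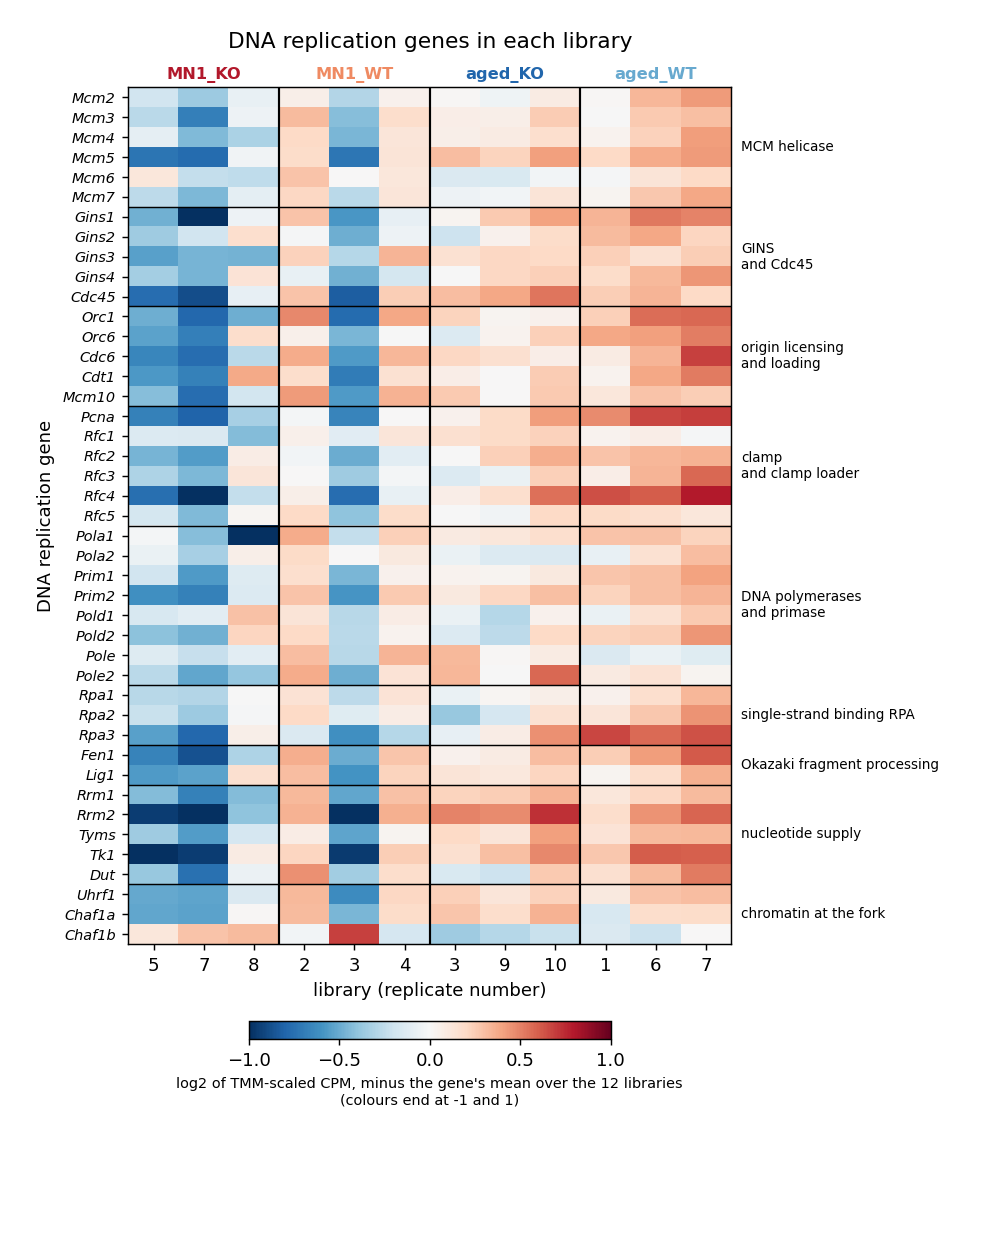
Heat map of the 43 DNA replication genes (rows, grouped by role) in the 12 libraries (columns, by group and replicate number), with colour giving log2 TMM-scaled CPM minus the gene's mean over the libraries, red above and blue below. MN1_KO replicates 5 and 7 and MN1_WT replicate 3 are blue in nearly every row, and Chaf1b in the bottom row is red in these 3 libraries.

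Promoter sequence was available for 36 of the 43 genes, as windows from 250 bases before to 50 bases after the transcription start in RefSeq, build GRCm38.p6. Mcm4, Gins1, Gins2, Gins4, Rfc2, Prim2 and Pole had none. The windows were searched on both strands for the E2F words TTTGGCG and TTTCCCG, which are only a part of the sequences that E2F factors bind. Either word stood in a window of 18 of the 36 genes, which is 50% of them, against 6.76% of 17492 protein-coding genes. Counted over windows, the words were in 18 of 42 windows of replication genes (42.9%) and in 5.91% of 21263 windows of protein-coding genes. The CCAAT box (CCAAT, bound by NF-Y) was in 59.5% of the replication windows and 38.2% of all, and the cell cycle homology word TTTGAA was in 11.9% and 16%. None of these words contains another. A match is a description of these letters and not a bound site.

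The 250 bases before the start are shown for Mcm6 and Mcm5, helicase subunits of which Mcm5 passed the test below and Mcm6 did not, a difference that was not itself tested, and for Rrm2 and Chaf1b, which had the lowest and the highest estimate between MN1_KO and aged_KO. E2F words are in capitals. The Mcm6 sequence (chr1:128359706-128359955, minus strand) held TTTGGCG at 110 and at 47 bases before the start. The Mcm5 sequence (chr8:75109259-75109508, plus strand) held it on the other strand, read here as CGCCAAA, at 148 bases before the start. The Rrm2 sequence (chr12:24708004-24708253, plus strand) and the Chaf1b sequence (chr16:93883651-93883900, plus strand) held neither word.
Mcm6: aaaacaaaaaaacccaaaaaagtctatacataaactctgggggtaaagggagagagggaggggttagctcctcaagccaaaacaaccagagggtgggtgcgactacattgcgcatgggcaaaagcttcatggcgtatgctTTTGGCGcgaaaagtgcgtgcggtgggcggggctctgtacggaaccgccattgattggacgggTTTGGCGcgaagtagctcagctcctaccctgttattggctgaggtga
Mcm5: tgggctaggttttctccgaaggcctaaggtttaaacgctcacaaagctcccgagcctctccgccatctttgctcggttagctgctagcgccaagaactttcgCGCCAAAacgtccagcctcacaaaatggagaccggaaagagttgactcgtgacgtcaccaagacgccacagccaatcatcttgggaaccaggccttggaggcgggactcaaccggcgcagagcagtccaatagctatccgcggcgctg
Rrm2: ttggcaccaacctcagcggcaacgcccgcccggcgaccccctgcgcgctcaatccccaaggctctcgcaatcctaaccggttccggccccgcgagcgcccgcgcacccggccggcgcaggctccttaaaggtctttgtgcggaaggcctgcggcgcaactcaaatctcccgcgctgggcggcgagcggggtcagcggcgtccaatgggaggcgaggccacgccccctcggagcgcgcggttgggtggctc
Chaf1b: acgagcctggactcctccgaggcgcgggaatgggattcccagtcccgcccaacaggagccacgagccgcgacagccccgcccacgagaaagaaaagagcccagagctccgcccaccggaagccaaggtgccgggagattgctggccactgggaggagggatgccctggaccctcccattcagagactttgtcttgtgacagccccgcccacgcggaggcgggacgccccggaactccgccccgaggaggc

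The comparison of MN1_KO with aged_KO asks what changed with the MN1 experiment in marrow labelled as Hopx knockout. Hopx RNA itself differed here, at 2.92 to 3.51 CPM in MN1_KO and 0 to 0.121 CPM in aged_KO. On the TMM scale, in the fit of 12 libraries, the replication genes that passed were all lower. In this comparison 14 of the 43 genes were lower in MN1_KO and none was higher (edgeR quasi-likelihood test, Benjamini-Hochberg adjusted p under 0.05 over 13937 genes). Of all genes tested, 16.8% were lower, 21.1% were higher and 37.9% were called in either direction. The median log2 fold change of the 43 genes was -0.44, against 0.084 over all genes tested, and 40 of the 43 estimates were below 0 (45.9% of all genes). The TMM-scaled CPM values of the groups did not overlap in 26 genes that were lower and in 1 that was higher, against 22.4% and 27.7% of all genes. A fit of only the 6 libraries compared gave 15 genes lower and 1 higher, beside 32.4% of all genes called in either direction.

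These counts depended on the scaling, and the TMM factors were 0.997 to 1.23 in MN1_KO and 0.82 to 0.912 in aged_KO. With library totals in place of TMM the median of all genes moved to 0.46 and that of the replication genes to -0.076, so the replication genes stood 0.53 below all genes on the log2 scale, and 0.52 below with TMM. The count of estimates below 0 then fell to 24 of 43, with 4 genes lower (Cdc45, Pcna, Rfc4 and Rrm2) and 2 higher (Pold1 and Chaf1b), beside 9.74% of all genes lower and 38.4% higher. Of the 14 genes lower with TMM, 9 had CPM values without TMM that did not overlap between the groups. Mcm5, Rfc1, Pole2, Tyms and Chaf1a had values that did. The 14 genes were picked by the test on these same libraries, and no such count was made over all genes. Changes below are on the TMM scale, relative to the bulk of genes.

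Of the genes for nucleotide supply, 3 of 5 were lower in MN1_KO. Rrm2 (chromosome 12, 24708241 to 24714146, mm10) had 140, 109 and 166 CPM in MN1_KO, against 283, 250 and 313 CPM in aged_KO. Every MN1_KO library was below every aged_KO library. On the TMM scale Rrm2 averaged 126 ± 36.1 CPM in MN1_KO and 327 ± 33.3 CPM in aged_KO (SD, n = 3 each). That is 2.6-fold lower in MN1_KO, with a log2 fold change of -1.38 ± 0.34 (SE) and an edgeR adjusted p of 0.0121, the largest change among the 43 genes. Rrm1, the catalytic subunit of the same enzyme, had 264, 205 and 214 CPM in MN1_KO, against 308, 281 and 314 CPM in aged_KO. Its groups did not overlap either, and its log2 fold change was -0.77 ± 0.20 (edgeR adjusted p = 0.015). Thymidylate synthase, Tyms, fell by 0.60 on the log2 scale (edgeR adjusted p = 0.0219). The table also holds the copy Tyms-ps, and the estimated counts of Tyms were not whole in any of the 12 libraries, so reads may have been split between copies. Thymidine kinase Tk1 had an estimate of -0.86 that did not pass (edgeR adjusted p = 0.0685), and the dUTPase gene Dut had one of -0.35.

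The clamp and its loader held 3 genes that were lower in MN1_KO out of 6. Pcna had 228, 192 and 235 CPM in MN1_KO, against 278, 277 and 339 CPM in aged_KO, without overlap. It averaged 197 ± 33.9 TMM-scaled CPM in MN1_KO and 346 ± 45.9 in aged_KO (SD, n = 3 each), a log2 fold change of -0.81 ± 0.20 (edgeR adjusted p = 0.0125). Rfc4, a small subunit of the loader that opens the clamp, had 24.8, 18.3 and 28.7 CPM in MN1_KO, against 32.4, 31.2 and 42.7 CPM in aged_KO. Its log2 fold change was -0.92 ± 0.25 (edgeR adjusted p = 0.0179). Rfc4 overlaps the abundant translation factor gene Eif4a2 on the other strand, and whether the counting used strand is not given in the sources used here. The large subunit Rfc1 fell by 0.42 on the log2 scale (edgeR adjusted p = 0.0194). Rfc2, Rfc3 and Rfc5 had estimates of -0.49, -0.21 and -0.24 that did not pass.

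Of the 6 helicase genes Mcm5 alone was lower in MN1_KO. Mcm5 (chromosome 8, 75109569 to 75128439, mm10) had 173, 155 and 228 CPM in MN1_KO, against 264, 224 and 267 CPM in aged_KO, and replicate 8 of MN1_KO reached into the aged_KO range. Its log2 fold change was -0.79 ± 0.25 (95% interval -1.35 to -0.23, edgeR adjusted p = 0.0333). Mcm6 had 397, 285 and 249 CPM in MN1_KO, against 246, 220 and 251 CPM in aged_KO, and a TMM-scale log2 fold change of -0.013 (95% interval -0.33 to 0.30). The direct difference between Mcm5 and Mcm6 was not tested, their intervals overlap, and with library totals neither passed (edgeR adjusted p = 0.091 and 0.0907). Mcm2, Mcm3, Mcm4 and Mcm7 lay between them, with estimates of -0.22, -0.44, -0.38 and -0.28.

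Of the 5 helicase partners, Cdc45 and Gins3 were lower. Cdc45 had 45.5, 38.3 and 59.2 CPM in MN1_KO, against 71.1, 67.4 and 78.1 CPM in aged_KO, with a log2 fold change of -0.95 ± 0.28 (edgeR adjusted p = 0.024). Gins3 had 12.6, 12.2 and 10.7 CPM in MN1_KO, against 15.1, 14.1 and 14.7 CPM in aged_KO, with a log2 fold change of -0.68 ± 0.17 (edgeR adjusted p = 0.0124). Neither gene overlapped between the groups. Gins1 had an estimate of -0.73 with an adjusted p of 0.0581 by edgeR, and Gins2 and Gins4 had estimates of -0.13 and -0.35. Among Orc1, Orc6, Cdc6, Cdt1 and Mcm10 only Cdc6, which helps load the helicase, passed, with a log2 fold change of -0.69 ± 0.25 (edgeR adjusted p = 0.0478). Orc1, Mcm10, Orc6 and Cdt1 had estimates of -0.68, -0.62, -0.35 and -0.32.

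Of the 8 polymerase and primase genes 2 were lower, namely Prim2, the large primase subunit, at -0.65 ± 0.22 (log2 fold change, edgeR adjusted p = 0.0409) and Pole2, the second subunit of polymerase epsilon, at -0.70 ± 0.22 (edgeR adjusted p = 0.0287). Pold1, the catalytic subunit of polymerase delta, and Pola2, of the polymerase alpha complex, had estimates of 0.12 and 0.015. Pola1 gave 71.9, 49.8 and 27.7 CPM in MN1_KO, against 57.7, 52.5 and 57.2 CPM in aged_KO, and did not pass. None of the 3 genes of RPA, which coats single-stranded DNA, passed. The flap endonuclease gene Fen1, which trims Okazaki fragments, had 65.9, 52.5 and 68.4 CPM in MN1_KO, against 80.0, 73.8 and 90.3 CPM in aged_KO, and a log2 fold change of -0.75 ± 0.23 (edgeR adjusted p = 0.026). Lig1, the ligase that joins the fragments, had an estimate of -0.42 and did not pass.

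The subunits of chromatin assembly factor 1, which places histones behind the fork, differed in sign. Chaf1a had a log2 fold change of -0.59 ± 0.21 (edgeR adjusted p = 0.049). Chaf1b (chromosome 16, 93883901 to 93906115, mm10) had 54.3, 56.1 and 50.6 CPM in MN1_KO, against 29.1, 27.4 and 30 CPM in aged_KO. All MN1_KO libraries lay above all aged_KO libraries. The TMM-scaled difference was 0.53 ± 0.20 (log2, SE) and just missed the threshold (edgeR adjusted p = 0.0542), and it was 0.90 ± 0.24 with library totals (edgeR adjusted p = 0.0137). Uhrf1, which recruits the maintenance DNA methyltransferase to new strands, had an estimate of -0.58 and did not pass. Fen1 overlaps Tmem258 and Chaf1a overlaps Ubxn6 on the other strand, with the same doubt about strand as for Rfc4. Mcm7, Gins2, Orc6, Rfc2, Rfc5 and Tk1 also overlap a gene on the other strand, and the estimated counts of Pola2 were not whole in any library.

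An E2F word stood in the promoter window of 6 of the 13 genes with a window that were lower in MN1_KO, and of 12 of the 23 with a window that did not pass, shares of 46.2% and 52.2%. The number of lower genes depended on single libraries. Leaving out MN1_KO replicate 8 raised it to 25, with 24.5% of all genes lower, and leaving out any 1 of the other 5 libraries gave 4 to 7, with 17.7 to 26.1% of all genes then called in either direction, against 37.9% with all libraries. Rrm2 and Pcna passed under all 11 alternatives, and no other of the 14 genes did.

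**Figure D2:**
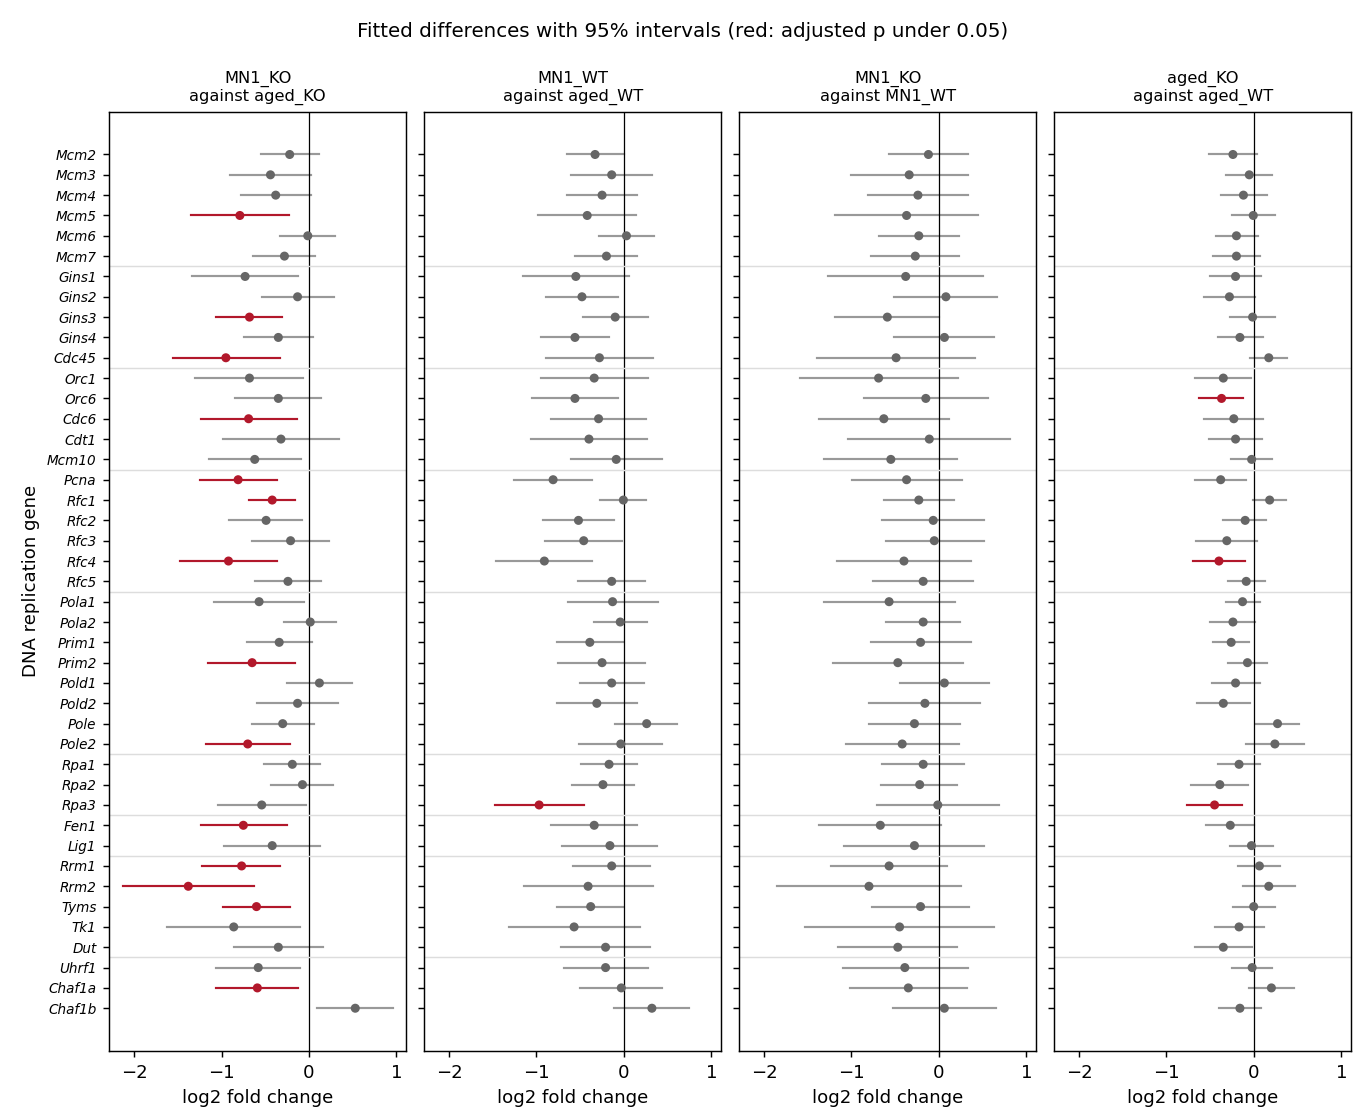
Log2 fold changes of the 43 DNA replication genes (points, rows in order of role) with 95% intervals (lines) in 4 comparisons, red where the edgeR adjusted p was under 0.05. The 14 red genes of MN1_KO against aged_KO lie left of 0, and the intervals of MN1_KO against MN1_WT reach past 0 for every gene but Gins3.

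Between MN1_WT and aged_WT, the same question in marrow with Hopx, 1 of the 43 genes was lower in MN1_WT and none was higher, against 2.58% of all genes lower and 3.58% called in either direction. The median log2 fold change was -0.25, against 0.057 over all genes, and 40 of 43 estimates were below 0, as were 45.4% of all genes. With library totals 32 of 43 were below 0. The TMM-scaled groups did not overlap in 14 genes that were lower, against 19.4% of all genes. The gene was Rpa3, the smallest RPA subunit (chromosome 6, 8255936 to 8259173, mm10). It had 21.3, 17.8 and 19 CPM in MN1_WT replicates 2, 3 and 4, against 34.5, 32.6 and 35.5 CPM in aged_WT. The MN1_WT libraries all lay below the aged_WT libraries, whether high or low in Mn1. The log2 fold change was -0.97 ± 0.23 (edgeR adjusted p = 0.0444), and it did not pass once any 1 of the 6 libraries was left out. Pcna, at -0.81 (edgeR adjusted p = 0.0514), and Rfc4, at -0.91 (edgeR adjusted p = 0.0674), also had groups that did not overlap and did not pass.

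The libraries labelled MN1_WT were not alike in the replication genes. On the TMM scale replicate 3, the library high in Mn1, was below both replicates 2 and 4 in 42 of the 43 genes, as it was in 43.6% of 13347 genes. The TMM factors were 1.19 in replicate 3, and 1.03 and 1.01 in replicates 2 and 4. Rrm2 was at 123 CPM in replicate 3, against 288 and 284 CPM in replicates 2 and 4. Tk1 was at 40.5 CPM in replicate 3, against 79.0 and 79.4 CPM in replicates 2 and 4. The exception on the TMM scale was Chaf1b, at 77.8 CPM without TMM in replicate 3, against 41.1 and 36.7 CPM in replicates 2 and 4. In CPM without TMM, Mcm6, Rfc1, Pola2 and Rpa2 were not below both replicates 2 and 4 either. Pola2 was at 60.9 CPM in replicate 3, against 60.2 and 55.3 CPM in replicates 2 and 4. Again on the TMM scale, replicate 3 lay within the range of the MN1_KO libraries in 32 of the 43 genes, as it did in 56.9% of genes. It was a single library, in which MN1 and other features cannot be told apart.

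Without replicates 2 and 4, MN1_WT is that single library, and the fit assumes that it varied like the other groups. Set against aged_WT, 15 of the 43 genes were then lower and 1 was higher, with 5.28% of all genes lower and 11.5% higher, and the median log2 fold change was -0.78. Rrm2 stood at -1.51 ± 0.34 (log2, SE; edgeR adjusted p = 0.018), Rfc4 at -1.45 ± 0.34 (edgeR adjusted p = 0.0214) and Pcna at -1.28 ± 0.27 (edgeR adjusted p = 0.0138). The gene that was higher was Chaf1b, at 0.79 ± 0.17 (edgeR adjusted p = 0.0148). Of the 14 genes lower between MN1_KO and aged_KO, 10 were among these 15, which is 71.4% of the first list and 66.7% of the second. Those 10 were Cdc45, Cdc6, Fen1, Mcm5, Pcna, Prim2, Rfc4, Rrm1, Rrm2 and Tyms. The compared groups share no library, but both fits draw their estimate of the spread from largely the same libraries. Replicates 2 and 4 alone, set against aged_WT, gave no called gene of the 43 by edgeR and a median of -0.043, with 27 estimates below 0, beside 1.92% of all genes lower and 0.883% higher.

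**Figure D3:**
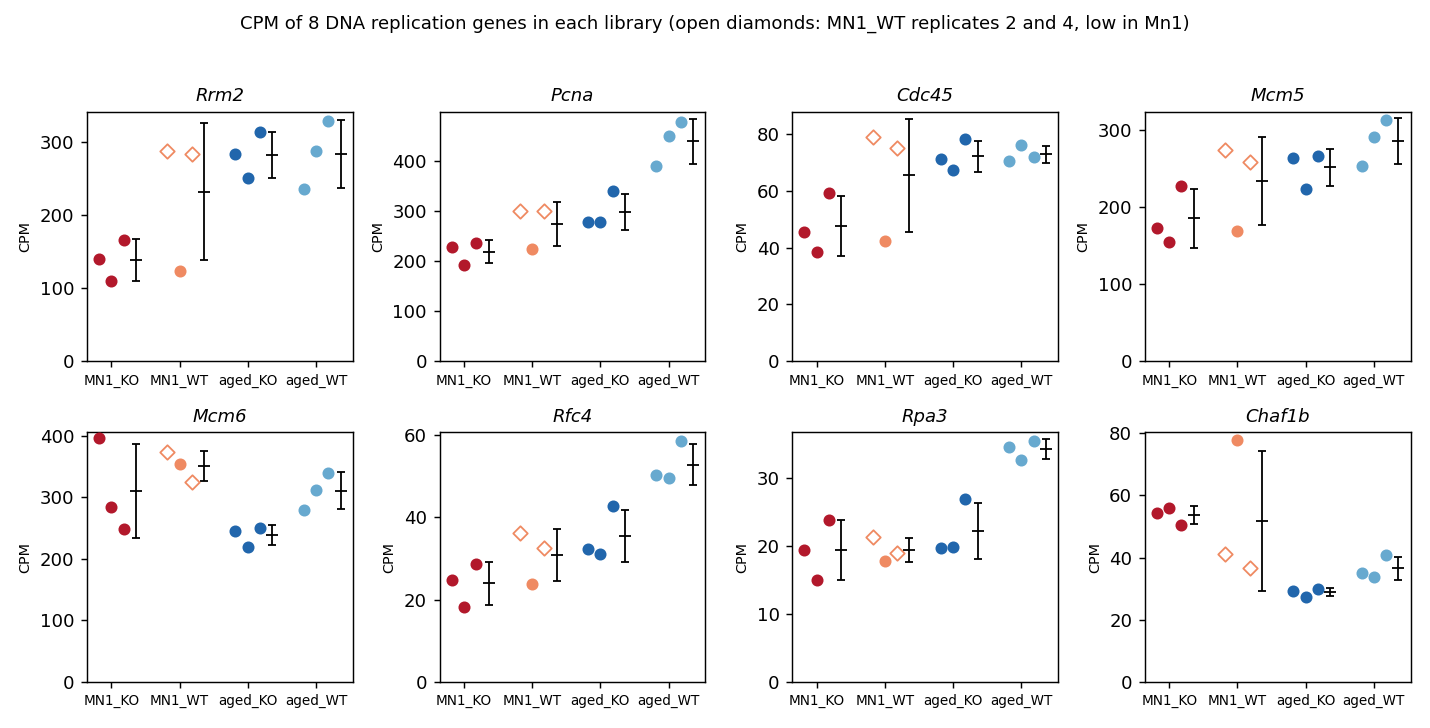
CPM without TMM scaling of 8 DNA replication genes in each library (points) by group, with the mean and SD of the 3 libraries beside them, and open diamonds for MN1_WT replicates 2 and 4. In Rrm2, Cdc45 and Mcm5 the filled MN1_WT point sits with MN1_KO and the diamonds sit with the aged groups, while aged_WT is highest in Pcna, Rfc4 and Rpa3.

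By the labels, MN1_KO against MN1_WT is the effect of Hopx loss with MN1. Because MN1_WT replicates 2 and 4 were low in Mn1, the comparison mixes Hopx status with Mn1 level. None of the 43 genes passed by edgeR, and none of all 13525 genes did (0%). At an unadjusted p under 0.05 by edgeR 1 replication gene, Gins3, was lower, as were 5.8% of all genes. DESeq2 called none of the 43 genes and 623 of all genes. The median log2 fold change was -0.28, against 0.029 over all genes, with 39 of 43 estimates below 0 (46.8% of all genes). The TMM-scaled groups did not overlap in 2 genes that were lower, against 8.64% of all genes. The median turned to 0.19, with 35 estimates above 0, when MN1_WT was replicate 3 alone, and it was -0.47 when MN1_WT was replicates 2 and 4. Rrm2 shows the width of the estimates, with a log2 fold change of -0.80 and a 95% interval of -1.85 to 0.25. Set against replicate 3 alone Rrm2 was at 0.35 ± 0.43 (log2, SE), and set against replicates 2 and 4 at -1.15 ± 0.27 (edgeR adjusted p = 0.0641). None of the 43 genes passed against replicates 2 and 4 by edgeR, where 3.19% of all genes were lower and 3.3% higher.

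Between aged_KO and aged_WT, the effect of Hopx loss without MN1, the count of replication genes that passed depended on the scaling. On the TMM scale 3 of the 43 genes were lower in aged_KO and none was higher, against 15.8% of 12771 genes lower, 15.6% higher and 31.4% called in either direction. The median log2 fold change was -0.17, against -0.024 over all genes, and the 43 estimates ran from -0.45 to 0.27, with 36 below 0 (52.4% of all genes). With library totals the median of all genes moved to -0.20, that of the replication genes to -0.35, and 20 of the 43 genes were lower, beside 34.7% of all genes called in either direction. The TMM-scaled groups did not overlap in 11 genes that were lower and in 2 that were higher, against 25.9% and 22.5% of all genes.

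The 3 genes were Rpa3, Orc6 and Rfc4. Rpa3 had 19.7, 19.8 and 26.9 CPM in aged_KO, against 34.5, 32.6 and 35.5 CPM in aged_WT, and a log2 fold change of -0.45 ± 0.14 (edgeR adjusted p = 0.036). Orc6, a subunit of the origin recognition complex, had 32.6, 32.9 and 39.7 CPM in aged_KO, against 48.5, 50 and 55.9 CPM in aged_WT, and a log2 fold change of -0.37 ± 0.11 (edgeR adjusted p = 0.0346). Rfc4 had 32.4, 31.2 and 42.7 CPM in aged_KO, against 50.3, 49.6 and 58.7 CPM in aged_WT, and a log2 fold change of -0.40 ± 0.13 (edgeR adjusted p = 0.0478). Orc6 overlaps Vps35, and Rfc4 Eif4a2, on the other strand. None of the 3 groups of values overlapped, and none of the 3 genes passed once any 1 library other than aged_KO replicate 10 was left out. Without aged_KO replicate 10, 7 of the 43 genes were lower, beside 35.2% of all genes called in either direction.

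Pcna just missed the threshold between aged_KO and aged_WT, at -0.38 (log2, edgeR adjusted p = 0.0504), with 278, 277 and 339 CPM in aged_KO, against 389, 450 and 477 CPM in aged_WT. Rpa3, Rfc4 and Pcna were each higher in all 3 aged_WT libraries than in any of the other 9 libraries, so the same aged_WT values enter both the comparison with aged_KO and that with MN1_WT. The 6 helicase genes had estimates from -0.24 to -0.0074 and none passed. Rrm2 was at 0.17, with a 95% interval from -0.13 to 0.47. The genes highest in aged_KO were Pole, at 0.27 (edgeR adjusted p = 0.0843), and Pole2, at 0.24, and neither passed.

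The difference between the labelled effects of Hopx loss was taken as with MN1 minus without. Its MN1 part is MN1_KO against MN1_WT, in which MN1_WT replicates 2 and 4 were low in Mn1. The difference passed for none of the 43 genes by edgeR. It passed for 3.32% of 13937 genes, 1.92% with a negative and 1.41% with a positive difference. At an unadjusted p under 0.05 it was negative for 4 genes, Rfc1, Pole, Gins3 and Rrm1, with log2 differences of -0.42, -0.55, -0.58 and -0.64, as it was for 11.2% of all genes. DESeq2 called none of the 43 genes. The median difference was -0.14, against 0.076 over all genes, and 0.09 with library totals; 28 of 43 differences were below 0 (45.3% of all genes), and 19 of 43 with library totals. With MN1_WT replicate 3 left out, 10 of the 43 genes had a negative difference, with 9.99% of all genes negative and 13.6% positive, and with replicates 2 and 4 left out none had, with a median of 0.25. The 10 were Gins3, Cdc45, Mcm10, Rfc1, Pole, Pole2, Rrm1, Rrm2, Uhrf1 and Chaf1a, led in size by Rrm2 at -1.33 ± 0.30 (log2, SE; edgeR adjusted p = 0.0117).

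Other genes of the cell cycle were taken from lists of 46 further replication genes, 20 regulators of the G1/S transition and 26 genes of mitosis. Between MN1_KO and aged_KO, 18 of 26 mitosis genes were lower and none was higher, and 12 of 20 G1/S regulators were lower and 2 higher. Of the 46 further replication genes 13 were lower and 1 higher. Of all genes 16.8% were lower and 21.1% higher. The median log2 fold changes of these lists, in the same order, were -0.84, -0.68 and -0.35, beside 0.084 for all genes. With library totals 9 mitosis genes were lower and none higher, and 8 G1/S regulators were lower and 4 higher. Of the further replication genes 6 were then lower and 7 higher, beside 9.74% of all genes lower and 38.4% higher. The medians were -0.50, -0.31 and 0.015, beside 0.46 for all genes. With 1 library left out the lower genes numbered 7 to 23, 10 to 14 and 8 to 20, the highest counts without MN1_KO replicate 8. Of all genes 17.7 to 52% were then called in either direction. Mki67, the proliferation marker Ki-67, had 712, 642 and 501 CPM in MN1_KO, against 1370, 1200 and 1190 CPM in aged_KO, and a log2 fold change of -1.40 ± 0.24 (edgeR adjusted p = 0.00311). Ccne2, a cyclin of the G1/S transition, was at -1.58 ± 0.28 (log2, SE; edgeR adjusted p = 0.00351), and the deoxycytidine kinase gene Dck at -1.58 ± 0.32 (edgeR adjusted p = 0.00592). E2f2, an activating E2F factor that is also high in erythroid cells, had 41.5, 75.3 and 127 CPM in MN1_KO, against 307, 302 and 270 CPM in aged_KO, and was at -2.16 ± 0.48 (edgeR adjusted p = 0.00785). E2f1, another activator, was at -0.49 and did not pass. Tfdp2, a dimerisation partner of E2F factors, was higher, at 1.31 ± 0.43 (edgeR adjusted p = 0.0348), and did not pass in 5 of 11 alternatives, each with 1 library left out.

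Between aged_KO and aged_WT the counts of the same lists also depended on the scaling. On the TMM scale 11 of 26 mitosis genes were higher in aged_KO and none was lower. Of the G1/S regulators 7 were higher and 4 lower, and of the further replication genes 4 were higher and 8 lower. Of all genes 15.6% were higher and 15.8% lower. With library totals no mitosis gene passed by edgeR in either direction, and 3 G1/S regulators were higher and 4 lower. Then 17 further replication genes were lower and none higher, beside 34.7% of all genes called in either direction. In the fit of 12 libraries, where 5.87% of all genes were called, 1 further replication gene, Orc5, was lower and no other gene of the 3 lists passed. With 1 library left out 1 to 10 mitosis genes were higher, the fewest without aged_WT replicate 7. Of all genes 18.6 to 35.2% were then called in either direction. Mki67 had 1370, 1200 and 1190 CPM in aged_KO, against 985, 1110 and 933 CPM in aged_WT, and a log2 fold change of 0.49 ± 0.13 (edgeR adjusted p = 0.018). The polo-like kinase gene Plk1 was at 0.43 and the centromere gene Cenpe at 0.40 (log2), both past the threshold. With library totals Mki67, Plk1 and Cenpe stood at 0.31, 0.26 and 0.22 (log2) and did not pass (edgeR adjusted p = 0.0668, 0.106 and 0.107), nor did they in the fit of 12 libraries (edgeR adjusted p = 0.26, 0.45 and 0.32). Among the further replication genes the origin factor genes Orc5 and Orc2 were lower, at -0.66 ± 0.12 and -0.42 ± 0.11 (log2, SE; edgeR adjusted p = 0.004 and 0.02), while Ticrr, which helps fire origins, was higher at 0.44 ± 0.10 (edgeR adjusted p = 0.0119). Orc5 passed in all 11 alternatives, and Orc2 did not pass in 4 of them. Ticrr did not pass with library totals, at 0.27 (edgeR adjusted p = 0.117), or in the fit of 12 libraries (edgeR adjusted p = 0.213). The median log2 fold changes were 0.25 for mitosis, 0.088 for G1/S regulators and -0.056 for further replication genes, beside -0.17 for the 43 genes. No difference between these lists was tested.

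**Figure D4:**
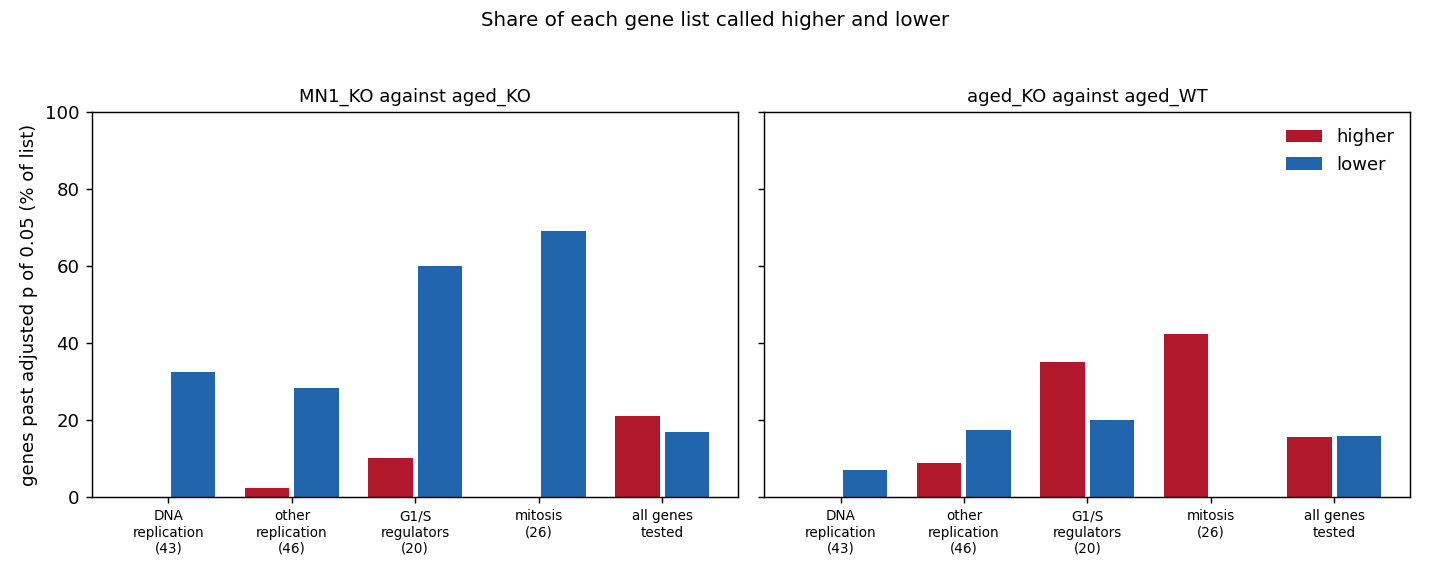
Percent of the genes of 4 lists, and of all genes tested, that were higher (red) or lower (blue) at an edgeR adjusted p under 0.05, between MN1_KO and aged_KO (left) and between aged_KO and aged_WT (right). On this TMM scale lower genes prevail in every cell cycle list on the left. On the right mitosis has 11 of 26 genes higher and DNA replication has 3 of 43 lower. With library totals 7 further replication genes are higher and 6 lower on the left, beside 38.4% and 9.74% of all genes. On the right no mitosis gene then passes and 20 of 43 replication genes are lower, beside 34.7% of all genes called in either direction.

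Markers of blood cell types also differed between the groups, and not all in the order of the replication genes. In whole marrow fewer cycling cells and less replication RNA per cell cannot be told apart. The summed CPM of 8 granulocyte progenitor genes was 6460 to 10700 in MN1_KO, 5000 to 14300 in MN1_WT, 13600 to 20900 in aged_KO and 8980 to 11100 in aged_WT. Between MN1_KO and aged_KO 6 of the 8 were lower, and between aged_KO and aged_WT 7 of the 8 were higher. The 10 stem and progenitor genes summed to 1160 to 5120 CPM in MN1_KO, to 4740 CPM in MN1_WT replicate 3 and to 580 and 380 CPM in MN1_WT replicates 2 and 4. They summed to 251 to 327 CPM in aged_KO and 375 to 411 CPM in aged_WT. Of these 10 genes 9 were higher in MN1_KO than in aged_KO.

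The 14 B lineage genes summed to 47.7 to 73.3 CPM in MN1_KO, 87 to 462 CPM in MN1_WT, 37 to 49.9 CPM in aged_KO and 557 to 1190 CPM in aged_WT, and all 14 were lower in aged_KO than in aged_WT. The 15 erythroid genes summed to 883 to 2710 CPM in MN1_KO, 1610 to 2090 CPM in MN1_WT, 896 to 1350 CPM in aged_KO and 2130 to 8020 CPM in aged_WT, and 10 of 14 tested were lower in aged_KO. The 12 mature neutrophil genes summed to 16800 to 60700 CPM in MN1_KO, 24300 to 52100 CPM in MN1_WT, 62900 to 83100 CPM in aged_KO and 51200 to 70900 CPM in aged_WT. Of these 12 genes 8 were lower and 1 higher in MN1_KO than in aged_KO, and 5 were higher and 0 lower in aged_KO than in aged_WT. The 11 monocyte and macrophage genes summed to 1040 to 2390 CPM in MN1_KO, 1100 to 2580 CPM in MN1_WT, 2600 to 2920 CPM in aged_KO and 2590 to 3700 CPM in aged_WT. Of these 11 genes 3 were lower and 2 higher in MN1_KO than in aged_KO, and 3 were lower and 0 higher in aged_KO than in aged_WT. The 10 T and NK cell genes summed to 131 to 170 CPM in MN1_KO, 179 to 440 CPM in MN1_WT, 117 to 199 CPM in aged_KO and 204 to 285 CPM in aged_WT, and 9 of the 10 were lower in aged_KO. Of the genes of these 7 lists only Hbb-bs was at 0 in a whole group, in MN1_KO and in aged_KO. The 4 Y-linked genes summed to 8.05 to 21.6 CPM in MN1_KO and 81.8 to 241 CPM in MN1_WT, and to at most 0.152 CPM in an aged library. The part of these cell types and of the Y-linked difference in the levels of replication genes was not tested.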

How the data were processed

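Poly(A) RNA of mouse bone marrow was made into libraries with the TruSeq Stranded mRNA kit, per the labels' protocols. The authors deposited, in 1 table for the aged and 1 for the MN1 libraries, expected counts, TPM and FPKM per gene symbol. Per the submitters' processing notes these come from RSEM 1.2.28 with Bowtie2 2.3.4.3 on mm10. The gene annotation, and whether counting used strand, are not given in the sources used here. Expected counts were rounded. They were whole before rounding in all but 5.2 to 6.84% of genes per library. TPM, deposited by the authors, was used for levels between genes, and the FPKM deposited by the authors was not used. Library totals were 16544407 to 28409046 counts. No 2 replicates agreed within sampling noise.

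Genes were kept by filterByExpr, scaled by TMM and tested by edgeR 4.0.16 (robust quasi-likelihood F test, R 4.3.3), with Benjamini-Hochberg adjustment over all genes tested and a threshold of 0.05. Aged_KO against aged_WT and MN1_KO against MN1_WT were each fitted on their 6 libraries. The other 3 comparisons were contrasts of 1 fit of 12 libraries with 4 group means. SE is the log2 fold change divided by the root of F. Means ± SD are TMM-scaled CPM, and values of single libraries are CPM without TMM. The alternatives were DESeq2 1.42.0, its size factors, library totals, no count filter, another set of libraries in the fit, leaving out each library, and leaving out MN1_WT replicates 2 and 4. The procedure was tested on simulated data. The members, gene lists and motifs were chosen with earlier results of these data known, so they give no independent support. Any of the 43 genes may be named. Of the other cell cycle lists up to 5 genes per comparison with the smallest adjusted p past the threshold may be named, with Mki67 and E2f1 in any case. Gene positions are from GENCODE (mm10) and promoter windows from RefSeq (GRCm38.p6).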

Additional observations from a re-analysis of the deposited data

Results flagged for a closer look

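For 5 genes of the other cell cycle lists the labelled effect of Hopx loss differed between the MN1 and the aged experiment. The test was of the difference itself (edgeR, 12 libraries). In the MN1 experiment Mn1 level also differed between MN1_KO and MN1_WT replicates 2 and 4. The log2 difference, the effect with MN1 minus the effect without, was -1.14 for the repressor E2f8 (adjusted p = 0.0163), -1.43 for Lin54, a subunit of the DREAM complex (adjusted p = 0.0282), -1.41 for Mki67 (adjusted p = 0.0482) and -1.28 for Top2a, topoisomerase II alpha (adjusted p = 0.0499). It was 1.04 for Pold4, the small subunit of polymerase delta (adjusted p = 0.0423). In these 5 genes all knockout libraries also lay on opposite sides of wild type in the 2 experiments, on the TMM scale. Without TMM the aged groups overlapped in Top2a, at 696, 630 and 642 CPM in aged_KO, against 645, 623 and 539 CPM in aged_WT. These calls depended on the settings and on single libraries: of 17 alternatives E2f8 passed in 11, Lin54 in 9, Pold4 in 6, Mki67 in 4 and Top2a in 3. Without MN1_WT replicates 2 and 4, the libraries low in Mn1, none of the 5 passed by edgeR, where 40 of all genes did. The log2 differences were then -1.12 for E2f8 (adjusted p = 0.131), -0.96 for Lin54 (adjusted p = 0.216), -0.72 for Mki67 (adjusted p = 0.34), -0.70 for Top2a (adjusted p = 0.368) and 0.93 for Pold4 (adjusted p = 0.336), with the sign of the full set of libraries.

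The same opposite order on the TMM scale was seen in 4 genes whose difference did not pass the test by edgeR. They were Rfc1 at -0.42 (adjusted p = 0.173), Dnmt1 at -0.72 (adjusted p = 0.0628), Dbf4 at -0.93 (adjusted p = 0.0763) and Kif11 at -1.25 (adjusted p = 0.0548). Without TMM, Dbf4 and Kif11 overlapped between the aged groups, Dnmt1 between the MN1 groups, and Rfc1 in both experiments. Rfc1 was the only one of the 43 DNA replication genes among them. Without MN1_WT replicates 2 and 4 the differences were -0.32 for Rfc1, -0.50 for Dnmt1, -0.38 for Dbf4 and -0.69 for Kif11, and none passed (edgeR adjusted p = 0.601, 0.43, 0.523 and 0.393). Groups of 3 libraries were too small to look for single outlying values.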

How the results depend on the processing

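No paired analysis was possible because the groups compared share fewer than 2 replicate numbers. Between MN1_KO and aged_KO 14 DNA replication genes passed, all lower, beside 37.9% of all genes called in either direction. With DESeq2 22 passed, all lower, beside 40.6% of all genes. With library totals 4 were lower and 2 higher, beside 48.1%. In a fit of only the 6 libraries compared 15 were lower and 1 higher, beside 32.4%. With 1 library left out 4 to 25 passed, all lower, beside 17.7 to 52%. The median log2 fold change was -0.076 with library totals and -0.38 to -0.70 with 1 library left out. Between MN1_WT and aged_WT the count of 1 was 4 with DESeq2, 2 with library totals, 0 without the count filter, 16 without the libraries low in Mn1, where the median was -0.78, and 0 with any 1 library left out. The share of all genes called between MN1_WT and aged_WT was 3.58%. It was 11.8% with DESeq2, 3.04% with library totals, 2.24% without the count filter and 0.548 to 2.8% with any 1 library left out. The fit without the libraries low in Mn1 had a single MN1_WT library and assumed that it varied like the other groups. Between aged_KO and aged_WT the count of 3, beside 31.4% of all genes, was 20 with library totals, beside 34.7%, where the median was -0.35. It was 0 in the fit of 12 libraries, where 818 of all genes were called against 4008. With 1 library left out it was 0 to 7, beside 18.6 to 35.2% of all genes. Without the libraries low in Mn1 the median was 0.19 between MN1_KO and MN1_WT and 0.25 for the difference of effects. The count of 0 for the difference of effects was 0 to 10 with 1 library left out, beside 0.372 to 23.6% of all genes. The cause of these changes was not tested, and a fit with a library left out also has fewer libraries. For the named genes past the threshold no alternative turned the direction.

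Over all genes, MN1_KO against MN1_WT gave 0 called by edgeR, 623 by DESeq2, 464 in the fit of 12 libraries, and 0 to 896 with 1 library left out, the highest without MN1_WT replicate 3. The difference of effects gave 463 by edgeR, 1659 by DESeq2, 40 without the libraries low in Mn1, and 53 to 3337 with 1 library left out. MN1_WT against aged_WT gave 499 by edgeR, 1786 by DESeq2, 2465 without the libraries low in Mn1, and 78 to 397 with 1 library left out. MN1_KO against aged_KO gave 5281 by edgeR, and 2515 to 7366 with 1 library left out. Aged_KO against aged_WT gave 2402 to 4599 with 1 library left out. The 3 libraries per group limit every comparison, and intervals of the replication genes between MN1_KO and MN1_WT reached past 0 in all but Gins3.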
